A study of Drosophila melanogaster with 4 samples.

Results

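The genes described here encode the proteins of the cytoplasmic ribosome. They were chosen by name, as every gene whose symbol begins with RpL, RpS or RpLP followed by a number, which takes 80 of the 4841 gene names in the tables and leaves out the mitochondrial ribosomal proteins. Of the 80 genes, 14 lie on the X chromosome and 66 on autosomes, with 16 on 2L, 17 on 2R, 14 on 3L, 18 on 3R and 1 (RpS3A) on chromosome 4. All 80 could be placed in RefSeq's Release 6 annotation, and all of their 477 listed intervals lie inside that gene. The name RpL37a belongs to an X-linked gene now called RpL37-1 and is distinct from RpL37A on 2L, and 1 name (RpL24-like) is that of a related protein and not of a core ribosomal protein.

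Ribosomal proteins assemble with ribosomal RNA into a small and a large subunit, and loss of 1 copy of many of these genes gives the slow-growing, thin-bristled Minute flies. Their mRNAs are among the most abundant of growing cells, mostly have short 5' UTRs that begin with a run of pyrimidines, and are regulated together at translation. In Drosophila many of their introns carry small nucleolar RNAs (snoRNAs), which guide modification of ribosomal RNA and are cut out of the intron after splicing.

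The study mapped RNA contacted by Sister of Sex-lethal (Ssx), a close relative of Sex-lethal, the RNA-binding switch protein of fly sex determination. It used individual-nucleotide resolution crosslinking and immunoprecipitation (iCLIP), in which RNA crosslinked to a protein by ultraviolet light is recovered with an antibody and sequenced. The Ssx IP group comprised 2 libraries made with a polyclonal rabbit antibody against Ssx, and the control group comprised 2 libraries made with rabbit IgG, all from SL2 cells, an embryonic Drosophila line that is male. Markers of the cell line were not analysed here, since the tables list reads recovered by IP and not levels of RNA. Whether libraries of a group stem from separate cultures is not stated in the labels, so deposited p-values reflect library spread that may be only technical. The authors' files hold a table per transcript part (5' UTR, coding sequence or CDS, intron, 3' UTR), with DESeq2 statistics per interval and no value per library. A positive log2 fold change is taken here to mean more reads in the Ssx IP. The tables do not state this direction, which is likely since they were deposited as Ssx-bound transcripts and DESeq2 by default sets the alphabetically first group as baseline.

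Because each deposited mean is a sum of whole reads over 4 scaling factors, the reads of each library could be recovered, but not the libraries' names. They are called A, B, C and D here and none is assigned to a group. Over non-overlapping intervals the 4 libraries held 352 to 3966 reads in 5' UTRs, 651 to 2983 in CDS and 1752 to 17055 in 3' UTRs, so coverage was low. Library D was the shallowest of the 4 in each of these tables. A count of 0 in a library allows up to 3 reads, and this covers counting error only.

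The listed intervals of ribosomal protein genes were densely covered for their length. Their listed 5' UTR intervals held 937 reads, or 99.98 reads per kilobase, against 14.3 reads per kilobase over all listed 5' UTR intervals. In CDS the members had 20.1 reads per kilobase, against 4.41 over all listed CDS intervals, and in 3' UTRs they had 39.1, against 12.9. These densities sum all 4 libraries and carry no information on the Ssx IP against control IgG. The members' listed intervals were also shorter. In 5' UTRs their 79 intervals spanned 9372 bases, against 621482 bases in all 1555. Each listed member interval held 2 or more reads, so a short one has a high density. Per interval the members held more reads in 5' UTRs (937 in 79, against 8888 in 1555) and CDS (532 in 106, against 7149 in 1769). In 3' UTRs they held fewer (833 in 69, against 40432 in 2776). The part of length in these densities was not tested.

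The share of a library's reads that fell on ribosomal protein genes differed between libraries. In 5' UTRs the share was 9.91% in library A (exact 95% interval 8.99 to 10.9), 12.6% in library B (11.6 to 13.7), 5.46% in library C (3.89 to 7.42) and 3.98% in library D (2.19 to 6.58). Libraries A and B thus had the higher shares, and their intervals do not overlap those of C and D. These intervals cover counting error only, take each read as independent and do not measure spread between libraries. RpS6 alone held 117 of the 501 member reads in library B. In CDS the order was similar, with 9.25% in A, 10.6% in B, 4.41% in C and 3.07% in D, whereas in 3' UTRs the shares were 1.98%, 1.84%, 3.17% and 2.11%, with library C highest.

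A gene was called when any of its intervals in a transcript part had a deposited adjusted p under 0.05, and it was tested when any interval had an adjusted p. In 5' UTRs, 64 ribosomal protein genes were listed, 13 were tested and 4 passed, all higher in the Ssx IP, beside 11.0% of all 82 tested genes. The 4 genes were RpS6, RpS19a, RpL17 and RpS5a, 3 components of the small subunit and 1 of the large. All 4 are X-linked: 4 of 6 tested X-linked members passed and 0 of 7 tested autosomal members, beside 14.7% of all tested X-linked genes and 8.33% of all tested autosomal genes. Those shares include the family, which supplied 4 of the 5 called X-linked genes and 0 of the 4 called autosomal genes. When the adjustment was spread over all listed 5' UTR intervals, none of the 4 members was kept (RpS6 at an adjusted p = 0.067 on the DESeq2 p-values). Over the 4 parts together RpS6 alone was kept. The untested members have too few reads for a deposited adjusted p, so these counts describe the better covered genes and not the whole family.

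RpS6, the small-subunit protein that S6 kinase phosphorylates, had the most 5' UTR reads of the family. Its 83-base first 5' UTR interval (chrX:7901249-7901331, minus strand, dm6) held 41 reads in library A, 113 in B, 0 in C and 0 in D. The reads thus came from libraries A and B alone. In the authors' deposited table this interval had a mean of 33.1 normalized reads and a log2 fold change of 6.47 ± 1.55 (SE, adjusted p = 0.00568 by DESeq2).

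A longer RpS6 interval that runs to base 411 of the gene (chrX:7900921-7901331) held 46, 117, 0 and 1 reads in A, B, C and D. Of its 164 reads, 93.9% were also counted in the interval of the first 83 bases. The authors' deposited table gave it, as a log2 fold change, 5.45 ± 1.38 (SE, adjusted p = 0.0072 by DESeq2). Directly downstream, the 6-base coding interval at the start of translation (chrX:7901243-7901248) held 12, 20, 0 and 0 reads. It touches the 5' UTR interval, so reads can have been counted in both. RpS6 overlaps the annotated pseudogene CR33222, and whether some of these reads belong to it was not tested.

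RpS19a, a small-subunit protein whose human counterpart is needed for maturation of the small ribosomal RNA, showed a similar concentration at its 5' end. The first 34 bases (chrX:16637894-16637927, plus strand) held 13, 45, 0 and 0 reads in libraries A, B, C and D, and the value in the authors' deposited table was 5.15 ± 1.64 (log2 fold change ± SE, adjusted p = 0.0318 by DESeq2). A 339-base interval from the same start, which includes the first intron, held 15, 48, 0 and 0 reads. Of its 63 reads, 92.1% were also counted in the 34-base interval. Where the 34-base exon meets the intron, 14 reads (6 in A and 8 in B) were counted on both sides, whereas 0 reads crossed the boundary of the isoform with a 56-base first exon. Some reads of the first exon therefore run past its 34-base form into sequence that the 56-base form counts as exon.

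RpL17 is a large-subunit protein near the exit of the peptide tunnel. Its 289-base 5' UTR interval (chrX:6743950-6744238, minus strand) held 24, 25, 0 and 0 reads in A, B, C and D, and the authors' deposited table gave it a log2 fold change of 4.82 ± 1.65 (SE, adjusted p = 0.049 by DESeq2). Unlike RpS6 and RpS19a, the reads of RpL17 were not packed at the start, since the first 130 bases held 9 of the 49 reads.

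RpS5a, a small-subunit protein of the head region, had 29, 20, 0 and 0 reads in libraries A, B, C and D in its 577-base 5' UTR interval (chrX:17147688-17148264, minus strand). The authors' deposited table gave it a log2 fold change of 4.77 ± 1.66 (SE, adjusted p = 0.049 by DESeq2). Its first 61 bases alone held 17, 8, 0 and 0 reads, and in the authors' deposited table that interval did not pass (3.69 ± 1.79, adjusted p = 0.123 by DESeq2). The calls of RpL17 and RpS5a thus sat just under the threshold. Both intervals overlap listed introns in part, but the first 61 bases of RpS5a, with 25 of its 49 reads, lie in none of them.

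**Figure D1:**
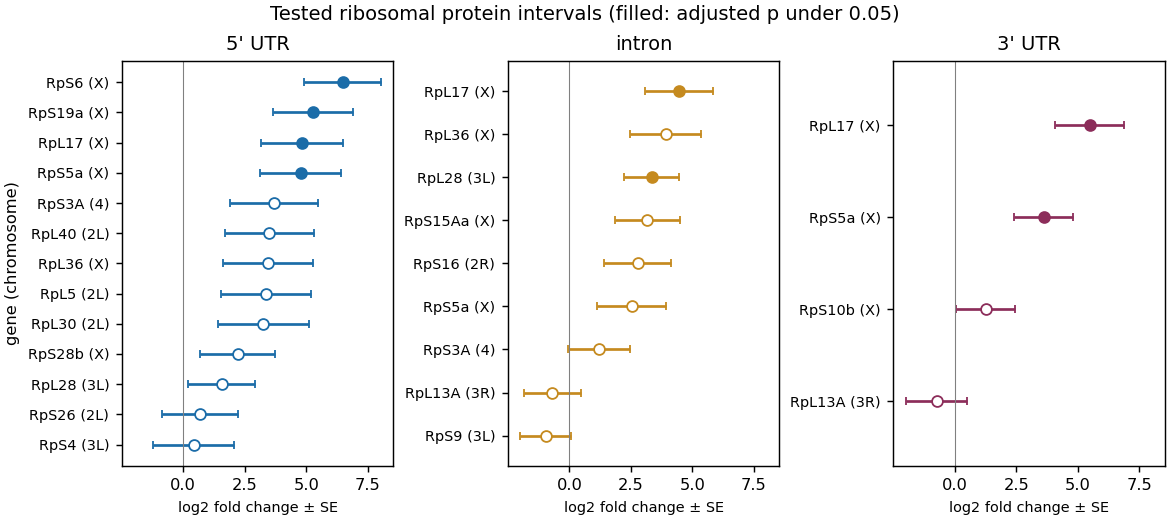
Deposited log2 fold changes (x axis, positive likely higher in the Ssx IP) with their standard errors for ribosomal protein genes with a deposited adjusted p, all 13 in 5' UTRs, 9 of the 10 in introns and all 4 in 3' UTRs, 1 interval per gene (that with the smallest p). Filled points passed an adjusted p of 0.05, 4 in 5' UTRs, 2 in introns and 2 in 3' UTRs, and all of these lie right of 0.

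The other 9 tested 5' UTRs did not pass. RpS3A, the small-subunit gene on chromosome 4, came closest among the autosomal members, with 7, 15, 0 and 0 reads in A, B, C and D and 3.70 ± 1.79 as log2 fold change in the authors' deposited table (SE, adjusted p = 0.123 by DESeq2). RpL40 (a ubiquitin fusion), RpL5 (which binds the 5S rRNA), RpL36 and RpL30 had 0 reads in both C and D. In the authors' deposited table their log2 fold changes were 3.49 ± 1.81, 3.37 ± 1.83, 3.43 ± 1.82 and 3.26 ± 1.85 (SE, adjusted p = 0.129 to 0.132 by DESeq2).

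Among the tested 5' UTRs with reads in C or D, RpS28b of the small subunit held 18, 16, 3 and 0 reads and had 2.20 ± 1.51 as log2 fold change in the authors' deposited table. RpL28, of the large subunit, held 51, 16, 10 and 0 reads in its best covered 5' UTR interval, with 1.56 ± 1.36 in the authors' deposited table. That RpL28 interval overlaps snoRNA:Or-CD11b and lies inside a listed intron, so the same reads can be counted as intron reads too. RpS26, which lies at the mRNA exit channel, and RpS4 had the smallest values of the tested genes in the authors' deposited table, 0.68 ± 1.56 and 0.42 ± 1.65 on the log2 scale. Neither value exceeded its standard error.

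**Figure D2:**
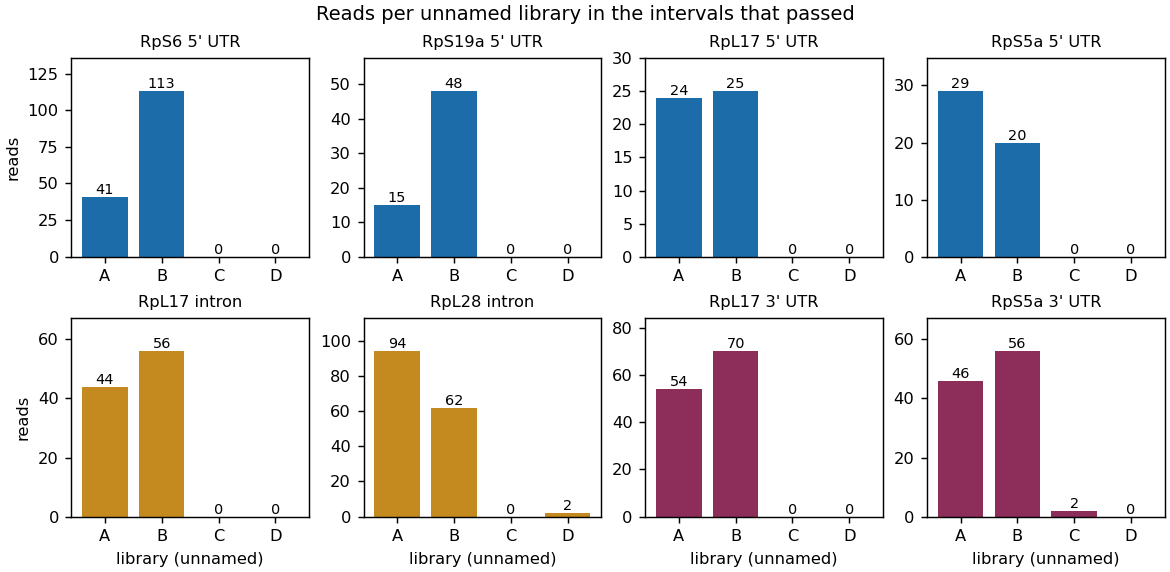
Reads (y axis, starting at 0) in each of the 4 unnamed libraries A to D for the 8 gene and transcript part combinations that passed, 1 interval each. Libraries A and B hold between 15 and 113 reads in each panel, and libraries C and D hold 0 to 2.

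Across all 64 listed members, 5' UTR values leaned upwards. Each gene enters this and the later medians with its best covered interval of the part. Of the 64, 58 had a positive log2 fold change by the authors' deposited table, at a median of 1.43, against 1089 of 1345 and a median of 0.74 over all listed genes. The 14 X-linked members were all positive with a median of 2.52, and 44 of 50 autosomal members were positive with a median of 1.12 in the authors' deposited table. Outside the family the medians were 0.85 for X-linked and 0.74 for autosomal genes in the authors' deposited table. The family's difference of medians, X-linked minus autosomal, was thus 1.40 on the log2 scale, against 0.11 for the other genes.

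Depth moved with this difference. Among members with 10 or more reads the 5' UTR medians were 3.31 for 10 X-linked and 2.95 for 11 autosomal genes in the authors' deposited table. The difference there was 0.35, and that of the other genes 0.34. The filter itself shifts fold changes: over all listed genes it raised the 5' UTR median from 0.74 to 2.51. Member 5' UTR reads were 384, 501, 38 and 14 in A, B, C and D, so the filter rests mostly on A and B. Filtered medians, here and in the other parts, therefore do not separate depth from fold change. X-linked members had 150 reads per kilobase of 5' UTR and autosomal members 75.3, and the part of read number in the difference was not tested.

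Member 5' UTR intervals with negative values had few reads. By best covered interval 6 of the 64 members were not positive, and RpLP1 was the lowest. RpLP1, an acidic protein of the ribosomal stalk, held 1, 0, 5 and 0 reads in A, B, C and D, at -1.86 ± 1.95 as log2 fold change in the authors' deposited table. A 30-base interval of RpS4 held 0, 0, 2 and 2 reads and had -2.46 ± 1.97 in the authors' deposited table, although the longer interval around it was slightly positive. The X-linked RpS14b had 0, 0, 0 and 3 reads in a 31-base interval, at -1.93 ± 1.97 in the authors' deposited table, while its best covered 5' UTR interval was positive. RpS14b and its neighbour RpS14a are near-identical copies, so the split of reads between them is uncertain.

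**Figure D3:**
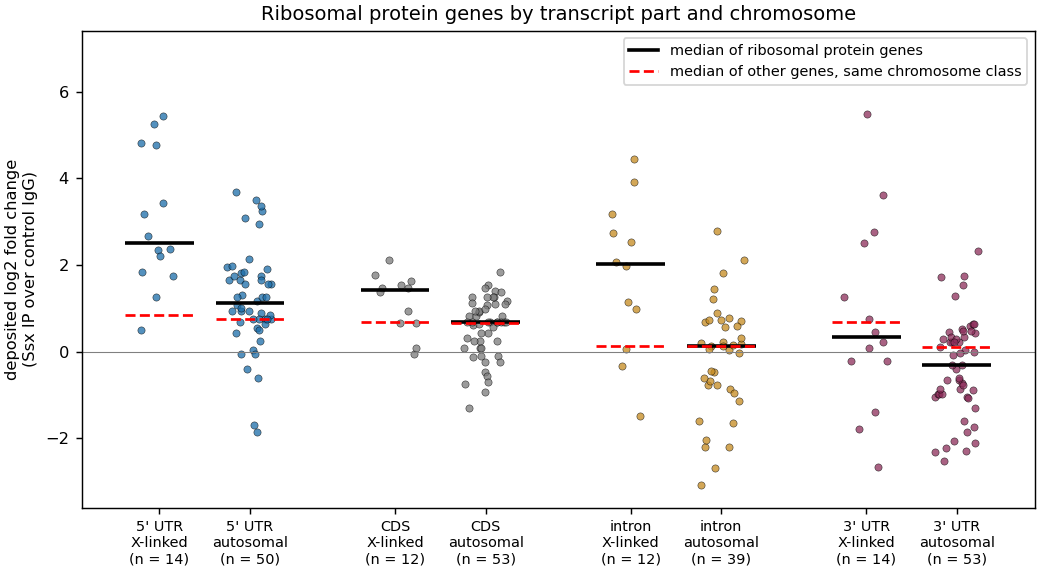
Deposited log2 fold change (y axis, Ssx IP over control IgG in the likely direction) of each ribosomal protein gene by transcript part, X-linked left of autosomal, 1 interval per gene (that with the highest mean). Black lines are family medians and dashed red lines the medians of other genes: in 5' UTRs the family medians are 2.52 and 1.12, in 3' UTRs 0.34 and -0.31.

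In CDS no ribosomal protein gene passed. All 65 listed members were tested and 0 were called in either direction, beside 0.0% of all 1432 tested genes, and 0 member intervals had an unadjusted DESeq2 p under 0.05. CDS intervals of the family held 2 to 32 reads, with a median of 4. In the authors' deposited table the smallest p was that of the 6-base RpS6 interval (log2 fold change 2.11 ± 1.51, SE, p = 0.161 by DESeq2, adjusted p = 0.855). RpS3A (6, 12, 1 and 0 reads, 1.85 ± 1.51) and RpS5a (6, 5, 0 and 0 reads, 1.77 ± 1.49) followed in the authors' deposited table.

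The third-best covered CDS interval was that of RpS10b, a small-subunit protein, with 9, 6, 2 and 0 reads and 1.53 ± 1.51 in the authors' deposited table. Among CDS intervals the lowest values of the authors' deposited table were -1.29 ± 1.42 for RpL37A, with 0, 0, 0 and 4 reads, and -1.21 ± 1.43 for 1 exon of RpL3, with 0, 0, 1 and 2 reads. RpL3 lies at the peptidyl transferase centre, and another of its intervals was positive (1.27 ± 1.46 in the authors' deposited table). The family median was 0.69, against 0.66 over all listed genes in the authors' deposited table, with 1.42 for X-linked and 0.68 for autosomal members. With 10 or more reads it was 1.46 for 11 members, against 0.71 for all 78 such genes in the authors' deposited table. The X-linked minus autosomal difference was 0.73 in the family and 0.03 in other genes, and 1.03 and 0.85 among genes with 10 or more reads.

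In introns 51 members were listed, 10 were tested and 2 passed, both higher in the Ssx IP, beside 4.73% of all 507 tested genes. None was lower, beside 6.9% of all tested genes. The 2 genes were the X-linked RpL17 (1 of 4 tested X-linked members, beside 6.14% of X-linked genes) and the autosomal RpL28 (1 of 6, beside 4.33%). Neither was kept when the adjustment was spread over all listed introns or over the 4 parts together.

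The first intron of RpL17 (chrX:6743149-6744145, minus strand) held 44, 56, 0 and 0 reads in libraries A, B, C and D. The authors' deposited table gave it a log2 fold change of 4.46 ± 1.40 (SE, adjusted p = 0.0208 by DESeq2). It runs over part of the 5' UTR interval described above, so the same reads can stand in both tables. The stretch of that intron outside the 5' UTR interval (chrX:6743149-6743949) held 31, 35, 0 and 0 reads and did not pass (authors' deposited table: 3.86 ± 1.44, adjusted p = 0.0683 by DESeq2). The RpL17 5' UTR and intron calls are therefore not separate observations.

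RpL28 of the large subunit was the most heavily read member in introns, with 379 reads or 25.5% of all member intron reads. The interval that passed (chr3L:3221284-3221466, minus strand) held 94, 62, 0 and 2 reads in A, B, C and D, and the authors' deposited table gave it a log2 fold change of 3.34 ± 1.12 (SE, adjusted p = 0.0341 by DESeq2). The neighbouring RpL28 intron (chr3L:3221710-3221881) held 32, 25, 16 and 0 reads and had -0.19 ± 1.13 in the authors' deposited table. The first introns of the gene had 0.77 to 1.05 in the authors' deposited table, also without passing. Of the listed introns of this gene, the one farthest from the start passed and those before it did not, and the difference between them was not tested.

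Each of these RpL28 introns holds at least 1 annotated snoRNA, snoRNA:Or-CD12 in the one that passed. The RpL17 intron holds snoRNA:Psi28S-1232. Within an interval, reads of an intron and of a snoRNA inside it cannot be told apart. In RpL17 the snoRNA lies in the stretch chrX:6743149-6743949, which held 66 reads, while the interval that passed held 100. Part of the RpL17 reads thus lay outside the stretch with the snoRNA, where the intron overlaps the 5' UTR interval. When intervals that contain a snoRNA were left out, 0 members were called in introns.

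A snoRNA lay inside a listed intron interval in 23 of 51 members (45.1%), against 51 of 2895 other genes (1.76%). Among the tested members the figure was 7 of 10. Member intron intervals with a snoRNA held 1000 reads, or 67.2% of the family's intron reads, at 55.7 reads per kilobase, against 32.6 reads per kilobase in those without. RpL28 alone supplied 379 of the 1000 reads, at 292 reads per kilobase, so this contrast leans on 1 gene and was not tested. The members' median log2 fold change was 0.13 with a snoRNA and 0.36 without in the authors' deposited table.

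Of the tested introns that did not pass, those of RpL36 and RpS15Aa on the X hold no annotated snoRNA. RpL36, of the large subunit, held 25, 42, 0 and 0 reads in A, B, C and D and had 3.91 ± 1.44 in the authors' deposited table (log2 fold change ± SE, adjusted p = 0.0649 by DESeq2). RpS15Aa, of the small subunit, held 45, 35, 1 and 0 reads and had 3.17 ± 1.31 in the authors' deposited table (adjusted p = 0.0969 by DESeq2). The first intron of RpS5a, likewise without a snoRNA, held 21, 27, 1 and 0 reads, at 2.53 ± 1.40 in the authors' deposited table.

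The tested introns of autosomal members that did not pass each contain a snoRNA. RpS16, whose protein reaches towards the decoding site, held 47, 17, 1 and 0 reads and had 2.78 ± 1.36 in the authors' deposited table (adjusted p = 0.183 by DESeq2). RpS3A held 17, 23, 1 and 2 reads and had 1.20 ± 1.28 in the authors' deposited table. RpS9 (21, 15, 4 and 11 reads) and RpL13A (33, 12, 18 and 0 reads) had negative values among the tested introns, -0.96 ± 1.03 and -0.69 ± 1.16 in the authors' deposited table. The most negative values over all listed member introns belonged to RpS12 (0, 0, 3 and 1 reads) and RpS4 (0, 0, 4 and 0 reads), at -3.08 ± 1.61 and -2.68 ± 1.62 in the authors' deposited table, without an adjusted p.

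The family's intron median was 0.18, against 0.13 over all listed genes in the authors' deposited table. X-linked members had a median of 2.03 (10 of 12 positive) and autosomal members 0.13 (22 of 39 positive) in the authors' deposited table. The difference, 1.90, stood beside 0.00 for other genes, and with 10 or more reads it was 2.20 beside 0.12. Without intervals that contain a snoRNA the family's difference was 0.97 (11 X-linked and 31 autosomal genes). With 10 or more reads the family's intron median was 1.05, against 0.76 over all listed genes in the authors' deposited table.

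**Figure D4:**
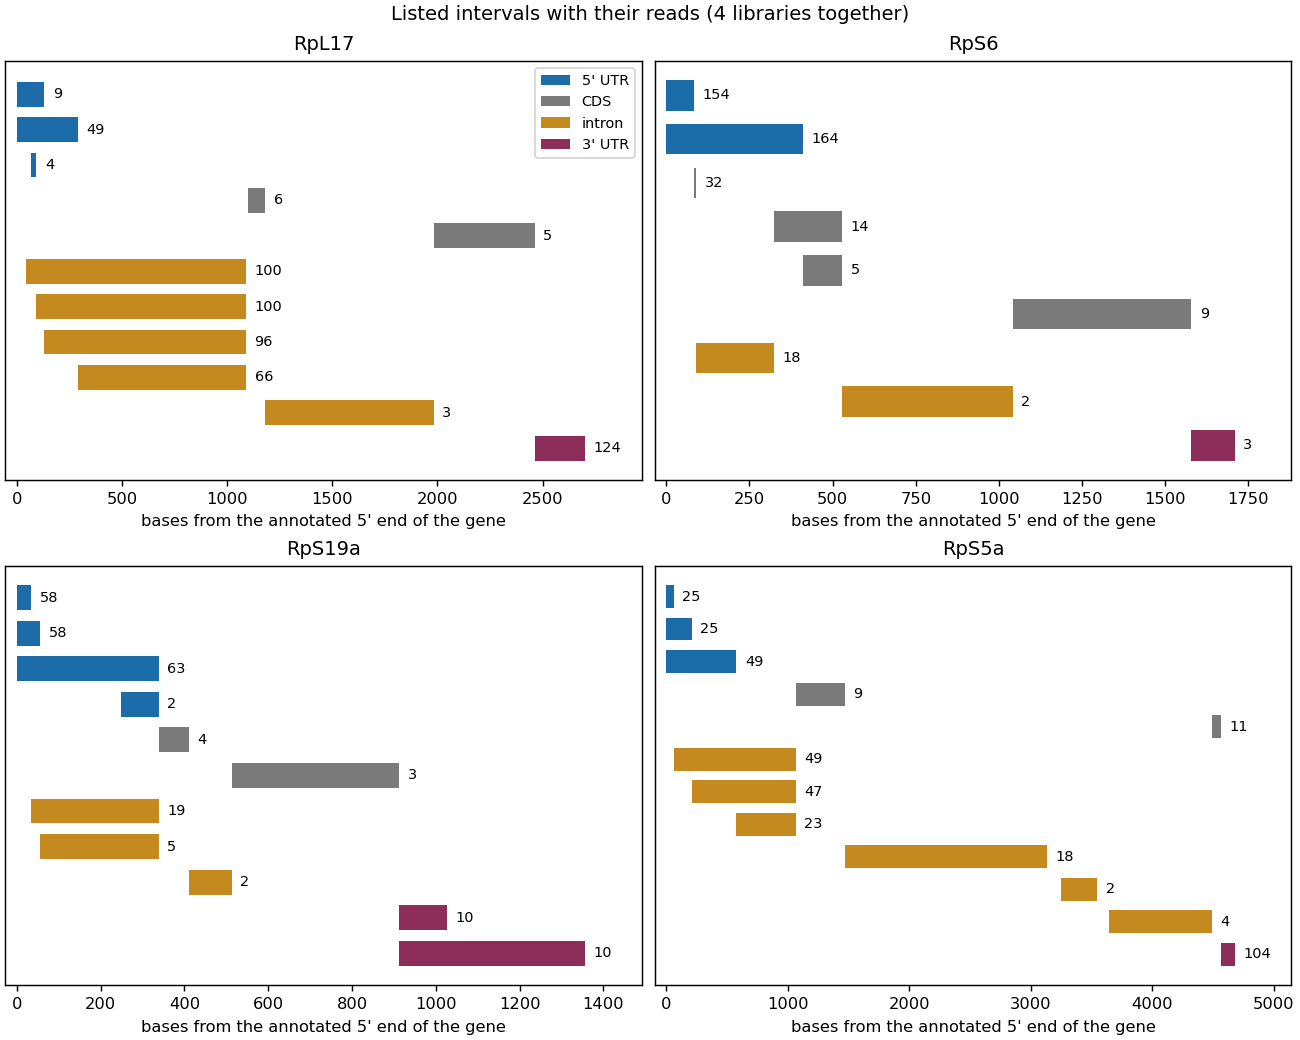
Listed intervals of RpL17, RpS6, RpS19a and RpS5a drawn to scale from the annotated 5' end of each gene (x axis, bases), with the reads of all 4 libraries together beside each bar and colours for the transcript part. Overlapping bars can hold the same reads: in RpS6 154 of 164 and in RpS19a 58 of 63 5' UTR reads are counted in the first short interval, and some run past it. RpL17 and RpS5a carry 124 and 104 reads in the 3' UTR.

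In 3' UTRs few members had enough reads to be tested. Of 67 listed members 4 were tested and 2 passed, RpL17 and RpS5a, both higher in the Ssx IP, beside 36.5% of all 178 tested genes. Of the 3 tested X-linked members 2 passed, beside 60.5% of X-linked genes, and the 1 tested autosomal member did not, beside 14.1% of autosomal genes. No member was lower, beside 1.12% of tested genes. The members' counts are close to these backgrounds and rest on 4 genes. Over all listed 3' UTR intervals RpL17 was kept and RpS5a was not.

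RpL17 (chrX:6741537-6741776, minus strand) held 54, 70, 0 and 0 reads in its 240-base 3' UTR in libraries A, B, C and D. The authors' deposited table gave it a log2 fold change of 5.49 ± 1.40 (SE, adjusted p = 0.00129 by DESeq2). RpS5a (chrX:17143588-17143702, minus strand) held 46, 56, 2 and 0 reads in 115 bases, and in the authors' deposited table it had 3.62 ± 1.19 (adjusted p = 0.0122 by DESeq2). Per length these were the most densely read 3' UTRs among members with 10 or more reads, with 904 reads per kilobase in RpS5a and 517 in RpL17.

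The other tested 3' UTRs did not pass. The X-linked RpS10b held 18, 27, 5 and 1 reads, at 1.26 ± 1.20 in the authors' deposited table (log2 fold change ± SE, adjusted p = 0.479 by DESeq2). RpL13A on 3R held 16, 11, 19 and 0 reads, at -0.73 ± 1.24 in the authors' deposited table (adjusted p = 0.7 by DESeq2). That 571-base interval overlaps snoRNA:Me28S-U2134a and the listed RpL13A intron, and its last 78 bases held 4 of its 46 reads. Its reads can therefore be intron or snoRNA reads, and the same reads can be counted in both parts. RpS28b, not tested, had the third smallest unadjusted p, with 12, 9, 0 and 0 reads and 2.77 ± 1.70 in the authors' deposited table (p = 0.102 by DESeq2). RpS14b (0, 0, 5 and 0 reads) had the lowest 3' UTR value of the family, -2.67 ± 1.78 in the authors' deposited table.

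Over all 67 members the 3' UTR median was -0.04, against 0.23 over all listed genes in the authors' deposited table. X-linked members had a median of 0.34 with 9 of 14 positive, and autosomal members -0.31 with 23 of 53 positive in the authors' deposited table. With 10 or more reads the median was 0.34 for 25 members, against 0.93 for all 811 such genes in the authors' deposited table. Other X-linked genes were positive in 497 of 617 cases (80.6%), with a median of 0.70 in the authors' deposited table. The X-linked minus autosomal difference was 0.65 in the family and 0.59 in other genes, and 1.42 and 1.69 among genes with 10 or more reads. Which of them was larger in 3' UTRs therefore depended on the read filter.

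Within a gene, the 5' UTR usually had the larger value. Of 52 members listed in both UTRs, 44 had a larger log2 fold change, in the authors' deposited tables, in the 5' UTR than in the 3' UTR, 11 of 14 X-linked and 33 of 38 autosomal, against 508 of 781 other genes. The sign differed in 25 of these 52 members, positive in the 5' UTR and negative in the 3' UTR in 23 and the opposite in 2. Among the 781 other genes these counts were 254 and 84. The 5' UTR also exceeded the intron in 39 of 43 members and the CDS in 45 of 55, while the intron exceeded the 3' UTR in 27 of 43. For these last comparisons other genes were not counted, so they are not shown to be particular to the family. Over all listed genes the median was likewise highest in 5' UTRs, at 0.74. It was 0.66 in CDS, 0.13 in introns and 0.23 in 3' UTRs, in the authors' deposited tables. Each table was scaled on its own, so its 0 need not be the same in each, and the order of parts was not tested. At few reads the value also depends on the part. An autosomal member with 3, 0, 0 and 0 reads in each part had 0.76 in the 5' UTR and 0.83 in CDS. With those same reads it had 0.18 in the intron and 0.45 in the 3' UTR, in the authors' deposited tables.

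Of the 80 genes 34 were listed in all 4 parts, 24 in 3, 17 in 2 and 5 in 1. Among the 34 were 11 X-linked members. RpL17 had values of 4.46 to 5.49 in 3 parts of the authors' deposited tables but not in CDS, where its value was -0.05 in the authors' deposited table. That CDS value rests on 5 reads. RpS6 and RpS19a were high in the 5' UTR and close to the other genes in the 3' UTR, at 0.45 and 0.75 in the authors' deposited table, and RpS5a was positive throughout. The 3' UTR values rest on 3 reads in RpS6 and 10 in RpS19a, so these contrasts between parts are uncertain. The X-linked members with a larger 3' UTR than 5' UTR value were RpL17, RpS28b and, named after its values were seen, RpL35.

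**Figure D5:**
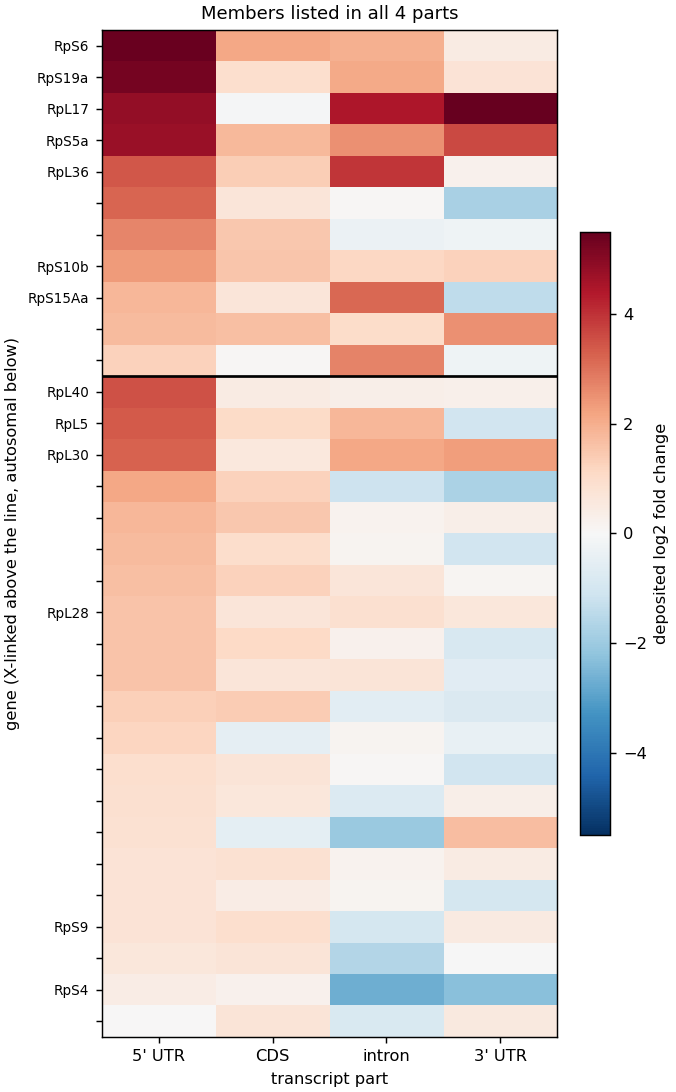
Deposited log2 fold changes (colour scale, red positive, blue negative) of 32 of the 34 ribosomal protein genes listed in all 4 transcript parts, all 11 X-linked ones above the line and 21 of the 23 autosomal ones below, with names for those tested outside CDS, 1 interval per gene and part (that with the highest mean). The 5' UTR column is red in nearly every row, while the 3' UTR column is mixed, with RpL17 (5.49) and RpS5a (3.62) highest.

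X-linked members supplied 49.5% of the family's 5' UTR reads and 47.7% of its 3' UTR reads, although they are 14 of the 64 and 14 of the 67 genes listed there. The share was 32.3% in CDS and 30.6% in introns. A few called genes carried much of it. Of the 464 X-linked 5' UTR reads, RpS6 held 164, RpS19a 63, RpL17 49 and RpS5a 49. Of the 397 X-linked 3' UTR reads, RpL17 held 124 and RpS5a 104. The X-linked share of reads over all listed genes was not computed. In 5' UTRs X-linked members had 188, 269, 3 and 4 reads in libraries A, B, C and D, and autosomal members 196, 232, 35 and 10. In 3' UTRs the X-linked sums were 172, 193, 25 and 7, and the autosomal sums 164, 120, 122 and 30. In C and D the X-linked sums were thus the smaller ones in both UTRs, and in B the larger ones, without a test.

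Genes with related roles were compared as counts only, and few of them could be called. Mitochondrial ribosomal proteins were listed with 3 genes in 5' UTRs, 4 in CDS, 3 in introns and 3 in 3' UTRs, of which only the 4 in CDS were tested, where 0.0% of all genes passed. Ribosomal proteins with names outside the pattern were likewise tested in CDS alone (2 genes). Among translation factors 1 of 2 tested 3' UTRs passed (Rbp2), and among Myc pathway genes 1 of 1 (dm, the fly Myc), both higher in the Ssx IP, beside 36.5% of all tested 3' UTR genes. Of the ribosome biogenesis genes 1 intron was tested outside CDS, and of the signalling genes upstream of the ribosome 1 intron and 1 3' UTR, and 0 passed.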

How the data were processed

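Per the submitters' processing notes, cutadapt 1.6, Bowtie 0.12.7, DESeq2 1.14.1 and DESeq were used with the builds BDGP6 and dm6. How reads were counted, duplicates handled and strand set, and which annotation served, is not given in the sources used here. Each deposited mean is the authors' signal for an interval, averaged over libraries as a mean of normalized read counts. On the log2 scale the authors deposited a fold change with its standard error. The deposited test statistic is a score, the fold change over its standard error, and the deposited p-value and adjusted p-value were used as they stand.

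Counts per library were planned for and are not in the tables analysed, so the deposited statistics were counted and described, with no test. Whole reads of the 4 unnamed libraries were solved from the deposited means at a relative tolerance of 1e-13, which gave 1 solution for 100% of the intervals tried. In the intron table this covered 8663 of 8796 intervals. The method was tested on simulated data. The libraries were linked between tables through intervals that lie inside each other, with 0 violations over 84, 1182 and 52 pairs. Each gene's median uses its interval with the highest mean. Genes were named when called or tested, or when among the 3 highest means, 3 smallest p-values or 2 most negative folds of a part. Members, lists and rules were chosen with earlier results of these data known. Exact intervals are Clopper-Pearson. Python 3.11.15, pandas 2.3.3, numpy 2.4.6, scipy 1.17.1 and matplotlib 3.10.9 were used. No sequences are shown. Some named results are not reported here.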

Additional observations from a re-analysis of the deposited data

How the results depend on the processing

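No paired analysis was possible because the tables hold no values of named libraries, and leaving out a library, edgeR and DESeq2 refits were not run because assigning the solved libraries to groups by their values was avoided. Of 76 alternatives, 57 left a count within 1.5 times or a median within the median deposited standard error, and 19 moved the result further. The 57 include CDS counts that stayed at 0, where 0 of all 1432 tested genes passed. The standard error used is that of single intervals and is wide for a median, so the tally does not measure stability. The count of members called in 5' UTRs was 4, and became 0 when adjusted over all listed intervals of the part, 1 (RpS6) over the 4 parts together or at an adjusted p under 0.01, and 2 with a mean of at least 10. In introns the count of 2 became 0 under both wider adjustments, at 0.01 and without intervals that contain a snoRNA (chosen after seeing the data), and 4 at 0.1. In 3' UTRs the count of 2 became 1 (RpL17) under both wider adjustments and at 0.01. With the opposite direction the 3 counts were 0. With a mean of at least 10 the median log2 fold change was 5.27 in 5' UTRs (3 genes) and 4.56 in 3' UTRs (2 genes), and the X-linked minus autosomal difference 3.80 in 5' UTRs (2 and 1 genes) and 5.14 in introns (1 and 3 genes), while no CDS member remained. Over all listed intervals, the adjusted p (Benjamini-Hochberg on the DESeq2 p) of RpS6 was 0.067 and that of RpL17 in the 3' UTR 0.0248. With 10 or more reads, a filter also chosen after seeing the data, the 5' UTR median was 3.08 and the X-linked minus autosomal difference there 0.35, and without snoRNA intervals the intron difference was 0.97, all within that wide standard error.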
